A study of Mus musculus with 15 samples.

Results

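The genes described here encode enzymes that turn arachidonic acid into leukotrienes, lipoxygenase products and prostaglandins. They were measured in mouse acute myeloid leukemia before and after an oncogenic NRAS transgene was switched off with doxycycline. The 10 genes were Pla2g4a, Pla2g4c, Alox5, Alox5ap, Lta4h, Ltc4s, Alox15, Ptgs1, Ptgs2 and Hpgds. A probe set counted as a member when the platform annotation gave it exactly 1 of these symbols. This rule found 13 of 45101 probe sets, for 9 of the 10 genes. Ptgs1, the constitutive cyclooxygenase, had 0 such probe sets and was not analysed here.

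Arachidonic acid is held in membrane phospholipids and is freed by phospholipases of the A2 type. In myeloid cells 5-lipoxygenase (Alox5), helped by the membrane protein FLAP (Alox5ap), converts it to leukotriene A4, which Lta4h turns into the neutrophil attractant leukotriene B4 and Ltc4s into the cysteinyl leukotriene C4. Cyclooxygenases (Ptgs1 and Ptgs2) open the branch to prostaglandins and thromboxane, and 15-lipoxygenase (Alox15) a further one.

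The series holds 15 arrays of leukemia cells taken from the spleens of SCID/Beige mice, hosts without functional T, B and NK cells, after tail vein transfer. All carry the genotype NRASG12V/Mll-AF9, so the MLL fusion is shared by every group. Vehicle-treated animals at 0 h form the RAS-ON group, with 5 arrays. The RAS-OFF groups received doxycycline by injection and in drinking water and hold 2 arrays each at 48, 60, 72, 84 and 96 h, 10 in all. RAS-ON samples had no doxycycline, so the drug and the loss of NRAS cannot be told apart, and no vehicle group was taken at the later times. The labels call the arrays of a group replicates without tying each to its own animal, so p-values measure only the spread between these samples, which may be technical. The labels do not name the promoter that drives the transgene.

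Some arrays need a remark. For the control transcript Gapdh, the 3-prime probe set exceeded the 5-prime one by 1.22 (log2) in RAS-OFF 96 h replicate 1, against 0.0989 to 0.355 elsewhere. This difference is used as a sign of how complete the labelled RNA is. The SD of the log2 difference between RAS-ON arrays was 0.166 to 0.219 among replicates 1 to 3, 0.169 between replicates 4 and 5, and 0.236 to 0.302 between these sets. The samples carried transcripts of leukocytes and of immature myeloid cells, among others. The log2 intensity of Ptprc, the pan-leukocyte antigen CD45, averaged 13.08 and that of Mpo, myeloperoxidase, 13.90 in RAS-ON arrays. Ngp, a neutrophil marker, averaged 14.54 in the same arrays. The mean of the RAS-OFF times differed from RAS-ON by -1.32 ± 0.08 (SE, log2) for Mpo. Median intensities lay between 149.99 and 156.53 on all 15 arrays. Precision is set by how few arrays each group has. Results that changed are also given without replicate 1 of 48, 84 and 96 h together, 3 RAS-OFF arrays that were set aside with earlier results of these data known. The SD over the 10 RAS-OFF arrays includes differences between times.

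For 3 of the members described next, the bases before the transcription start are shown. Pla2g4c was chosen because it had the largest change among the members. Alox5 and Lta4h were chosen because they fell side by side between 48 and 96 h, Lta4h in its brightest probe set. RefSeq starts of build GRCm38.p6 were matched by symbol for 8 of the 10 genes, without Alox5ap and Alox15. Each sequence holds the 250 bases before the start, 5′ to 3′ on the gene's own strand, and capitals mark motif matches. Pla2g4c has 2 starts in this table.
Alox5 (chr6:116461179-116461428, minus strand): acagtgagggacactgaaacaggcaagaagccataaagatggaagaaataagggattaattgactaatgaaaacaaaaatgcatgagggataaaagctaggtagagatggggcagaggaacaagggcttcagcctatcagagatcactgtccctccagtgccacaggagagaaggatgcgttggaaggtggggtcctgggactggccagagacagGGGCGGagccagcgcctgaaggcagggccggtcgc
Lta4h (chr10:93453146-93453395, plus strand): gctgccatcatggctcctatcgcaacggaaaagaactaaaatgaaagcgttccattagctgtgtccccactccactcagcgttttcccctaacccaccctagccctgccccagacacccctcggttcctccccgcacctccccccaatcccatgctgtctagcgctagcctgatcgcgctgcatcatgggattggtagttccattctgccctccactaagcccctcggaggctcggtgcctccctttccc
Pla2g4c (chr7:13325417-13325666, plus strand): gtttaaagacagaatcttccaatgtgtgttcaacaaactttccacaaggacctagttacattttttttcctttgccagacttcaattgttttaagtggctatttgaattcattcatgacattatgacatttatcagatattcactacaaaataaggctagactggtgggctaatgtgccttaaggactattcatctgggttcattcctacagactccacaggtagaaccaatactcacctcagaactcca
Pla2g4c (chr7:13329072-13329321, plus strand): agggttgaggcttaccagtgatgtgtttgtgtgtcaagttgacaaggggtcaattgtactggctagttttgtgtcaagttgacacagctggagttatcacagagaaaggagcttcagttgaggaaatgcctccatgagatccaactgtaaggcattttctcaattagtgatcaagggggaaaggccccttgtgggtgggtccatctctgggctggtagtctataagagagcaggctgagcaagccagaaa
The motifs searched on both strands were the GC box (GGGCGG), the AP-1 site (TGACTCA), the CRE (TGACGT), the ETS site (CCGGAAG), the PU.1 site (GAGGAAGT), the C/EBP site (TTGCNNAA), the GATA site (AGATAA), the FOXO site (GTAAACA) and the TATA box (TATAAA). The motifs for ETS and PU.1 share the letters GGAAG, and those for CRE and AP-1 share TGAC. In these 4 windows the only match was the GC box of Alox5, at bases -35 to -30 from the start. That motif was found in 32.7% of 32851 windows of the same length, and the others in 2.44% (PU.1) to 12.4% (TATA). A match describes letters only, and no match says only that these letters are not in this window.

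The question of the comparison is how the enzymes differ once NRAS is off. Each of 18193 genes was represented by its brightest probe set, on the log2 intensity scale, and tested with limma. An adjusted p below 0.05 over all genes counted as a pass. Against RAS-ON, the mean of the 5 RAS-OFF times was higher for 3 of the 9 members (Pla2g4c, Alox5 and Alox15), lower for 2 (Alox5ap and Lta4h) and did not pass for 4 (Pla2g4a, Ltc4s, Ptgs2 and Hpgds). Of all genes tested, 48.8% passed, 20.1% higher and 28.7% lower, so the count among the members is close to that of genes in general. The median log2 change was 0.09 for the members and -0.04 for all genes. In 1 of the 9 members, Pla2g4c, the groups did not overlap, against 21.3% of all genes, 9.36% with every RAS-OFF array above and 12% with every one below. In bulk samples fewer cells of a type and less RNA per cell cannot be told apart.

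**Figure D1:**
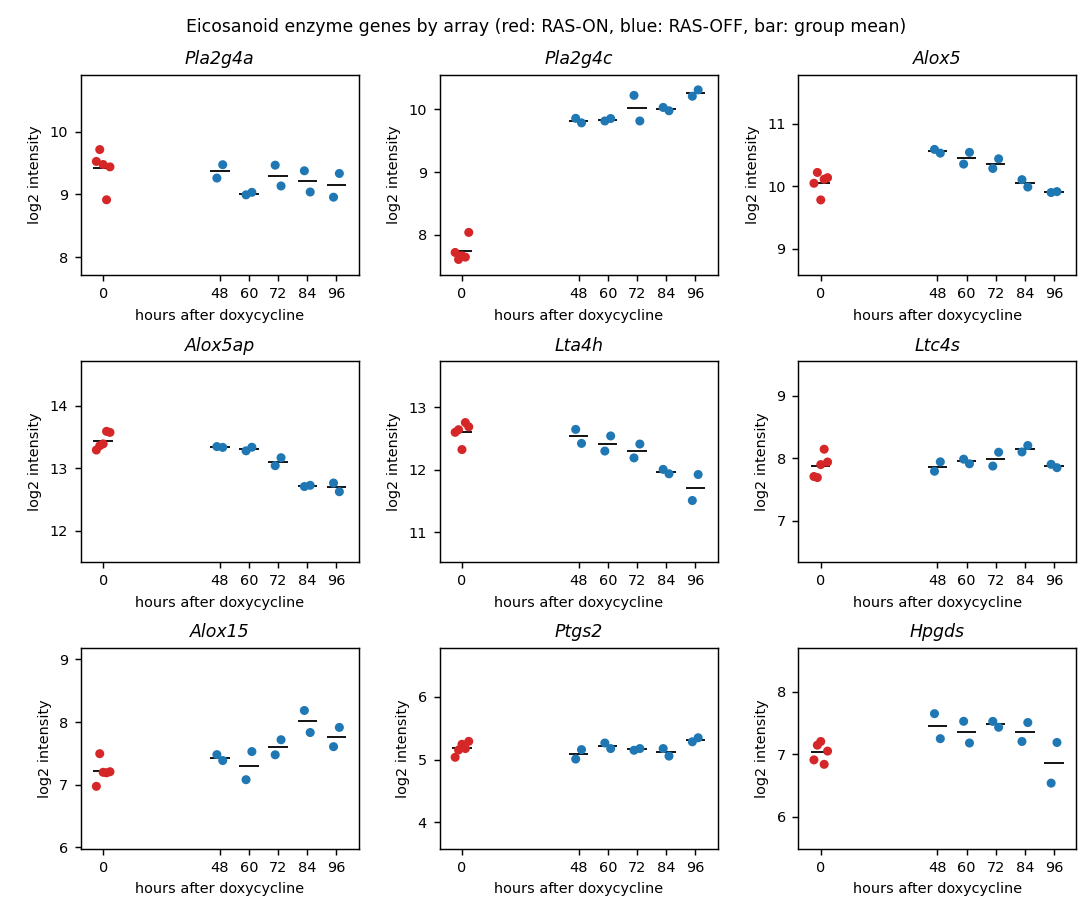
Log2 intensity of the 9 measured members (y axis, the same span in every panel) against hours after doxycycline (x axis), 1 point per array, red for RAS-ON and blue for RAS-OFF, with a bar at each group mean. Pla2g4c lies at 7.60 to 8.04 in RAS-ON and 9.79 to 10.31 in RAS-OFF arrays, while Alox5, Alox5ap and Lta4h step down between 48 and 96 h.

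Phospholipases that release arachidonic acid differed most from each other. Pla2g4c encodes cytosolic phospholipase A2 gamma, a membrane-bound enzyme of the group IV family that does not need calcium. Its log2 intensity was 7.72, 7.60, 7.66, 7.64 and 8.04 in RAS-ON replicates 1 to 5. It was 9.86 and 9.79 at 48 h, 9.82 and 9.86 at 60 h, 10.23 and 9.82 at 72 h, 10.03 and 9.98 at 84 h, and 10.21 and 10.31 at 96 h. All 10 RAS-OFF arrays lay above all 5 RAS-ON arrays. The rise was 2.26 ± 0.08 (SE) on the log2 scale, a 4.78-fold higher intensity, with an adjusted p of 2.88e-11 in limma, and it ranked 9 among 18193 genes ordered from the largest rise. It was already 2.09 ± 0.12 (SE) at 48 h and was 2.53 ± 0.12 at 96 h, with passes at all 5 times. RAS-ON replicate 5 stood above the other RAS-ON arrays.

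The rise of Pla2g4c rests on 1 of its 2 probe sets. Probe set 1436712_at carried it. Probe set 1444662_at lay below the array median on all 15 arrays, at 6.43 to 6.66 in RAS-ON and 6.39 to 6.57 in RAS-OFF arrays, and had a change of -0.05 ± 0.05 (SE; adjusted p = 0.433 in limma with every probe set tested on its own). With the mean of both, the rise was 1.10 and still passed. Genes of erythroid cells rose in the same arrays: 6 of 6 measured markers passed upward with a median of 1.72, and their mean log2 level was 11.08 to 11.43 in RAS-ON and 12.77 to 13.18 in RAS-OFF arrays. Of all genes 20.1% passed upward. The part of the erythroid markers in the Pla2g4c result was not tested.

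Pla2g4a encodes cytosolic phospholipase A2 alpha, the calcium-activated enzyme regarded as the main source of arachidonic acid for eicosanoids. Its log2 intensity was 9.53, 9.72, 9.48, 8.92 and 9.44 in RAS-ON arrays, and 8.96 to 9.48 with a median of 9.20 in the 10 RAS-OFF arrays. The RAS-OFF range lay within the RAS-ON range. The change of -0.21 ± 0.12 (SE) did not pass (adjusted p = 0.154 in limma), and its 95% confidence interval ran from -0.46 to 0.04. RAS-ON replicate 4 was the lowest RAS-ON array. Without it the change was -0.33 and passed (adjusted p = 0.00797), and against RAS-ON replicates 4 and 5 alone it was 0.03 (adjusted p = 0.891), the ends of the range of adjusted p over all alternatives.

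The 5-lipoxygenase pair and the brightest probe set of the leukotriene A4 hydrolase gene had a common course after 48 h. Alox5 encodes 5-lipoxygenase, the first enzyme of leukotriene synthesis. Its log2 intensity was 10.05, 10.22, 9.78, 10.11 and 10.14 in RAS-ON arrays. It was 10.59 and 10.53 at 48 h, 10.36 and 10.54 at 60 h, 10.29 and 10.44 at 72 h, 10.11 and 9.99 at 84 h, and 9.90 and 9.92 at 96 h. All 6 arrays from 48 to 72 h lay above every RAS-ON array, and the 4 later arrays lay within the RAS-ON range. The change against RAS-ON was 0.50 ± 0.10 (SE; adjusted p = 0.00242 in limma) at 48 h, 0.39 ± 0.10 (adjusted p = 0.0127) at 60 h and 0.30 ± 0.10 (adjusted p = 0.0391) at 72 h. At 84 and 96 h it was -0.01 ± 0.10 and -0.15 ± 0.10 and did not pass. The slope over the RAS-OFF times was -0.17 ± 0.03 (SE) per 12 h with an adjusted p of 0.00113 in limma. Its estimate uses no RAS-ON value, but its SE and adjusted p use the spread within all groups, RAS-ON included.

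The mean of the 5 times hides this course: for Alox5 it was 0.20 ± 0.07 (SE; adjusted p = 0.0224 in limma). That pass was lost without RAS-ON replicate 3, at a change of 0.14 (adjusted p = 0.0654), and without the arrays of 48, 60 or 72 h (adjusted p = 0.162, 0.0836 and 0.0564). It was also lost against RAS-ON replicates 4 and 5 alone (adjusted p = 0.144), in a comparison of 2 groups without times (0.171) and without the 3 set-aside arrays (0.0913), within a range of 0.00507 to 0.201 over all alternatives. At 72 h the pass was lost without RAS-ON replicate 1 or either 72 h array (adjusted p = 0.0622, 0.0777 and 0.28), and at 60 h without the 60 h replicate 2 (change 0.29, adjusted p = 0.175). Without the 3 set-aside arrays, the pass was also lost at 48 h (change 0.47, adjusted p = 0.0609), at 72 h (0.0747) and for the slope (-0.17, adjusted p = 0.0686). The adjusted p over all alternatives ran from 0.00147 to 0.0609 at 48 h, 0.00585 to 0.175 at 60 h, 0.0224 to 0.28 at 72 h and 0.000188 to 0.0686 for the slope.

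Alox5ap encodes FLAP, which presents arachidonic acid to 5-lipoxygenase at the nuclear membrane. Its log2 intensity was 13.29, 13.36, 13.39, 13.59 and 13.57 in RAS-ON arrays. It was 13.35 and 13.33 at 48 h, 13.28 and 13.34 at 60 h, 13.04 and 13.17 at 72 h, 12.71 and 12.73 at 84 h, and 12.76 and 12.62 at 96 h. The 48 h arrays lay within the RAS-ON range, and all 6 arrays from 72 h on lay below it. The mean of the 5 times changed by -0.41 ± 0.06 (SE) on the log2 scale (adjusted p = 3.93e-05 in limma). The change was -0.10 ± 0.09 (SE; adjusted p = 0.425 in limma) at 48 h, -0.34 ± 0.09 (adjusted p = 0.00961) at 72 h, -0.72 ± 0.09 (adjusted p = 1.61e-05) at 84 h and -0.75 ± 0.09 (adjusted p = 1.16e-05) at 96 h. The slope was -0.19 ± 0.02 (SE) per 12 h (adjusted p = 0.000226). At 72 h the pass was lost without the 72 h replicate 1, at a change of -0.27 (adjusted p = 0.142, in a range of 0.000758 to 0.142 over the alternatives).

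Lta4h encodes leukotriene A4 hydrolase, which makes leukotriene B4. Its brightest probe set, 1434790_a_at, stood at 12.60, 12.64, 12.32, 12.76 and 12.69 in RAS-ON arrays. It stood at 12.65 and 12.42 at 48 h, 12.30 and 12.54 at 60 h, 12.19 and 12.41 at 72 h, 12.01 and 11.94 at 84 h, and 11.51 and 11.93 at 96 h. All 4 arrays of 84 and 96 h lay below the RAS-ON range. The change was -0.63 ± 0.13 (SE; adjusted p = 0.0015 in limma) at 84 h and -0.88 ± 0.13 (adjusted p = 8.43e-05) at 96 h, and the slope was -0.21 ± 0.03 per 12 h (adjusted p = 0.00129). The lowest array, 96 h replicate 1, is the one with the high Gapdh difference. Without it alone the 96 h change was -0.68 (adjusted p = 0.00518, in a range of 1.97e-05 to 0.014 over the alternatives) and the slope -0.17 (adjusted p = 0.014), and both still passed. Without the 3 set-aside arrays, which include it, the slope was -0.15 and did not pass (adjusted p = 0.122, in a range of 0.000542 to 0.122 over the alternatives). In the mean of the gene's probe sets it was -0.10.

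The 3 probe sets of Lta4h disagreed. Tested on their own, 45.4% of all named probe sets passed. Over the mean of the RAS-OFF times, 1434790_a_at fell by 0.41 ± 0.09 (SE; adjusted p = 0.00161 in limma with every probe set tested on its own). Probe set 1426807_at rose by 0.31 ± 0.12 (adjusted p = 0.0429), with 9.05 to 9.85 in RAS-ON and 9.36 to 9.94 in RAS-OFF arrays. Within the RAS-OFF times its mean went from 9.89 at 48 h to 9.45 at 84 h and 9.50 at 96 h, with a slope of -0.11 ± 0.05 per 12 h that did not pass (adjusted p = 0.15; 95% confidence interval -0.22 to -0.01). Probe set 1453528_at had a change of -0.07 ± 0.06 (adjusted p = 0.323) and a slope of 0.01 ± 0.02 per 12 h (adjusted p = 0.824). With the mean of the 3, the change of Lta4h was -0.06 and did not pass (adjusted p = 0.371, in a range of 0.000199 to 0.371 over the alternatives), while 84 h and 96 h still passed at -0.22 and -0.27. Taken singly, 1426807_at changed by 0.08 ± 0.18 at 84 h and 0.12 ± 0.18 at 96 h against RAS-ON, with no pass. Probe set 1453528_at changed by -0.12 ± 0.09 and -0.04 ± 0.09, also with no pass. The direction of Lta4h over all RAS-OFF times therefore depends on the probe set. Of single probe sets only 1434790_a_at passed for the late fall, which is smaller in the mean that includes it.

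**Figure D2:**
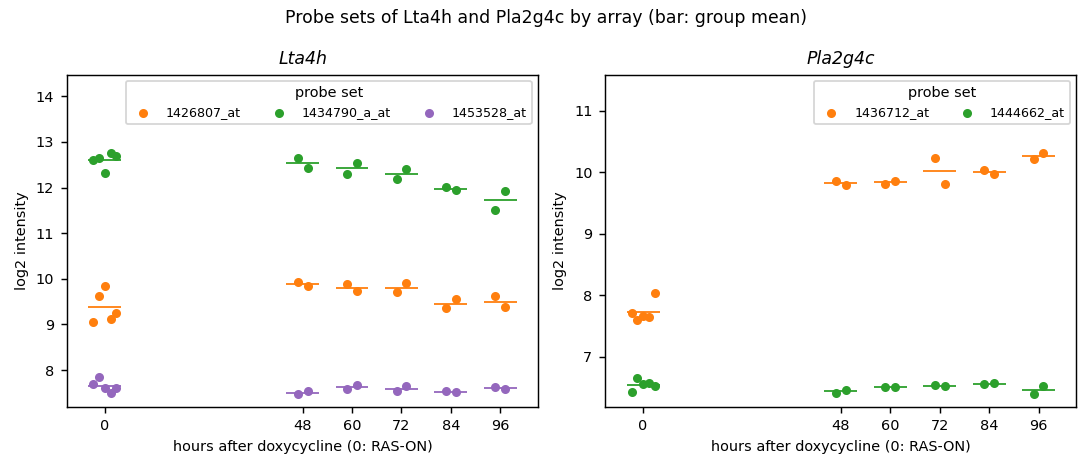
Log2 intensity (y axis) of every probe set of Lta4h (left) and Pla2g4c (right) against hours after doxycycline (x axis, 0 h is RAS-ON), 1 point per array and a bar at each group mean. The brightest Lta4h probe set steps down to 11.51 and 11.93 at 96 h, 1426807_at goes from a mean of 9.89 at 48 h to 9.50 at 96 h, 1453528_at stays between 7.47 and 7.84, and the dim Pla2g4c probe set stays between 6.39 and 6.66.

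Within the 10 RAS-OFF arrays the log2 intensities of Alox5 and Alox5ap correlated at 0.957, those of Alox5 and Lta4h at 0.952 and those of Alox5ap and Lta4h at 0.868 (Pearson). These are descriptions over arrays that come in pairs of the same time, with Lta4h read from its brightest probe set. Over all 15 arrays the correlations were 0.381, 0.488 and 0.893. The genes whose log2 intensity over the 15 arrays was most like a member were named for the 3 brightest members. For Alox5ap they were Arhgap9 (Pearson r = 0.984), Myl12b (0.975) and Lsp1 (0.975), for Lta4h Serpinb1a (0.983), Trem3 (0.981) and Cyba (0.972), and for Alox5 Rab3d (0.969), Sqor (0.959) and Rdh12 (0.952). For Pla2g4c, added after its values were seen, they were Fam210b (0.993), Usp32 (0.992) and Add2 (0.991). Within the 10 RAS-OFF arrays the values for these were lower, at 0.736, 0.765 and 0.702. For the genes named for Alox5ap, Lta4h and Alox5 they were 0.959 to 0.99 there.

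Markers of mature myeloid cells moved in the same arrays. Of 7 measured neutrophil markers 6 rose over the RAS-OFF times against RAS-ON and 5 fell between 48 and 96 h by the slope. Their mean log2 level was 12.00 to 12.40 in RAS-ON and 12.67 to 13.35 in RAS-OFF arrays. Of 6 monocyte and macrophage markers 5 fell against RAS-ON and 3 by the slope, with a mean level of 10.92 to 11.45 in RAS-ON and 9.87 to 10.56 in RAS-OFF arrays. Of 8 leukemia and myeloid progenitor markers 4 fell and 1 rose, and the median change was -0.78. Of all genes 20.1% rose and 28.7% fell against RAS-ON, and 5% rose and 8.75% fell by the slope. The part of the marker shifts in the results for Alox5, Alox5ap and Lta4h was not tested.

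Ltc4s encodes leukotriene C4 synthase, which conjugates leukotriene A4 with glutathione. Its log2 intensity was 7.71, 7.69, 7.90, 8.14 and 7.94 in RAS-ON arrays and 7.79 to 8.20 with a median of 7.93 in RAS-OFF arrays. The groups overlapped, and the change of 0.09 ± 0.07 (SE) did not pass (adjusted p = 0.336 in limma; 95% confidence interval -0.07 to 0.25). The value was highest at 84 h, with 8.10 and 8.20 and a change of 0.28 ± 0.11 (adjusted p = 0.0677). Against RAS-ON replicates 1 to 3 alone the mean change was 0.20 and passed (adjusted p = 0.0277), and against replicates 4 and 5 alone it was -0.08 (0.49), within a range of adjusted p from 0.0135 to 0.69 over all alternatives.

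Alox15 encodes the leukocyte 12/15-lipoxygenase of mice, known from eosinophils, resident macrophages and maturing red cells. Its log2 intensity was 6.97, 7.49, 7.20, 7.19 and 7.21 in RAS-ON arrays. It was 7.48 and 7.38 at 48 h, 7.08 and 7.53 at 60 h, 7.48 and 7.72 at 72 h, 8.18 and 7.83 at 84 h, and 7.61 and 7.91 at 96 h. The 4 arrays of 84 and 96 h lay above every RAS-ON array. The rise over all RAS-OFF times was 0.41 ± 0.10 (SE; adjusted p = 0.00294 in limma). By time it was 0.22 ± 0.15 at 48 h, 0.09 ± 0.15 at 60 h and 0.39 ± 0.15 at 72 h, with no pass, and 0.80 ± 0.15 (adjusted p = 0.000655) at 84 h and 0.55 ± 0.15 (adjusted p = 0.00921) at 96 h. At 96 h the pass was lost without the 96 h replicate 2, at a change of 0.39 (adjusted p = 0.143, in a range of 0.00354 to 0.143 over the alternatives).

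Most markers of eosinophils, red pulp macrophages and erythroid cells rose in the same arrays, while 5 of 6 monocyte and macrophage markers fell. Of 5 measured eosinophil markers 4 rose, with a median of 1.30 and a mean level of 7.67 to 8.65 in RAS-ON and 8.64 to 9.44 in RAS-OFF arrays, and 1 lay below the array median on all 15 arrays. Of 8 red pulp macrophage markers 7 rose and 1 fell, with a mean level of 9.74 to 10.32 in RAS-ON and 10.55 to 10.89 in RAS-OFF arrays. The 6 erythroid markers rose as given above, and of all genes 20.1% rose and 28.7% fell. None of the eosinophil and red pulp macrophage markers had a slope that passed, and 2 erythroid markers rose by the slope. The part of these markers in the Alox15 result was not tested.

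Among the members, Ptgs2 and Hpgds of the prostaglandin branch had no pass in the limma fit of all 15 arrays. Ptgs2 encodes the inducible cyclooxygenase. Both of its probe sets lay below the array median on all 15 arrays, so its level cannot be told from that of a dim probe set. The brighter one was at 5.04, 5.15, 5.24, 5.18 and 5.29 in RAS-ON and 5.01 to 5.35 in RAS-OFF arrays, with a 95% confidence interval of the change from -0.11 to 0.11 (adjusted p = 0.997 in limma). The other, 1417262_at, stood at 4.25 to 4.66 in RAS-ON arrays, and its highest value, 5.46, came from RAS-OFF 96 h replicate 1, where the Gapdh difference was 1.22. Hpgds encodes the hematopoietic prostaglandin D synthase, known from mast cells, megakaryocytes and some T cells.

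Hpgds stood at 6.91, 7.15, 7.20, 6.84 and 7.05 in RAS-ON arrays. It stood at 7.65 and 7.25 at 48 h, 7.53 and 7.18 at 60 h, 7.53 and 7.43 at 72 h, 7.20 and 7.51 at 84 h, and 6.54 and 7.19 at 96 h. The lowest of all was 96 h replicate 1, with its Gapdh difference of 1.22, and 6 of 10 RAS-OFF arrays lay above every RAS-ON array. The change of 0.27 ± 0.11 (SE) did not pass (adjusted p = 0.0535 in limma). Without that array it was 0.33 and passed (adjusted p = 0.00926). It also passed without RAS-ON replicate 3, the second 48 h array, the second 60 h array or the first 84 h array (adjusted p = 0.0388, 0.0321, 0.0381 and 0.0411), without the 96 h arrays (0.00471) and without the 3 set-aside arrays (0.0105), within a range of 0.00471 to 0.2 over all alternatives. Of 8 mast cell and basophil markers 2 rose and 2 fell, at a mean level of 7.52 to 7.84 in RAS-ON and 7.31 to 7.59 in RAS-OFF arrays with 2 below the array median throughout, and 7 of 7 megakaryocyte markers rose, from 10.40 to 10.77 in RAS-ON to 10.98 to 11.29 in RAS-OFF arrays. Of all genes 20.1% rose and 28.7% fell. The part of these markers in the Hpgds values was not tested. The slope of Hpgds, -0.12 ± 0.04 (SE) per 12 h, did not pass (adjusted p = 0.102) and passed without the second 96 h array (-0.18, adjusted p = 0.0178, the lowest over the alternatives, whose highest was 0.993).

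**Figure D3:**
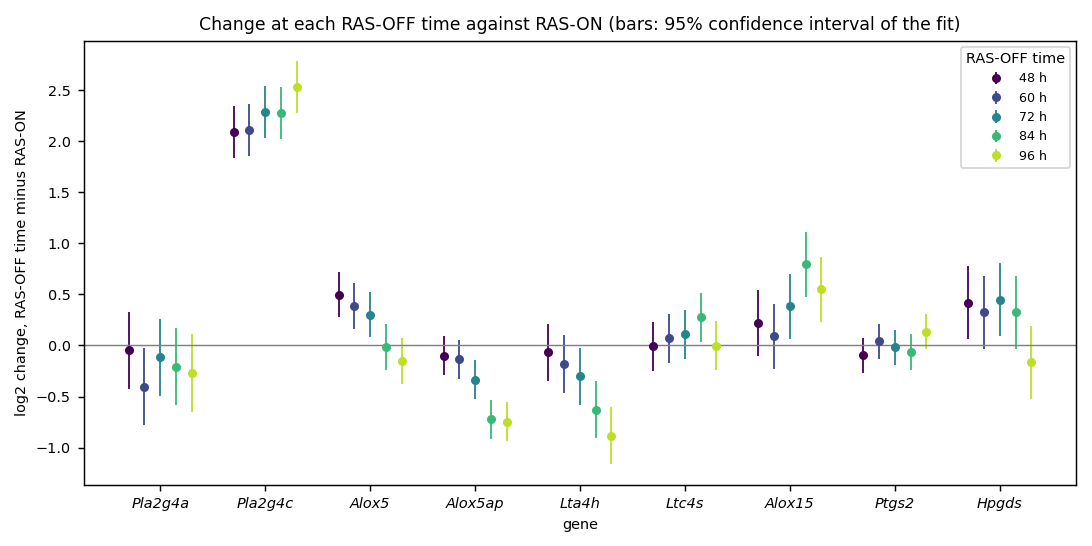
Log2 change of each RAS-OFF time against RAS-ON (y axis) for the 9 members (x axis), points coloured by time, bars giving the 95% confidence interval of the limma fit. Pla2g4c is 2.09 to 2.53 higher at every time, Alox5 moves from 0.50 to -0.15 and Lta4h from -0.07 to -0.88.

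Counted by time, 2 members were higher and 0 lower at 48 h, when 27.4% of all genes passed, 13.7% in each direction. The same count, 2 higher and 0 lower, stood at 60 h beside 25.8% of all genes, 11.5% higher and 14.2% lower. At 72 h 2 were higher and 1 lower, beside 31.8%, of which 13.4% of all genes were higher and 18.3% lower. At 84 and 96 h 2 were higher and 2 lower, beside 36.8% of all genes at 84 h (15% higher, 21.8% lower) and 37.6% at 96 h (16.7% higher, 20.9% lower). These comparisons share the RAS-ON arrays. By the slope over the RAS-OFF times, 2 members rose (Pla2g4c and Alox15) and 3 fell (Alox5, Alox5ap and Lta4h), where 13.7% of all genes passed, 5% upward and 8.75% downward. Without the 3 set-aside arrays the slope of 1 member passed, that of Alox5ap, and 3 passed without either 48 h array, without the first 60 h array or without the first 84 h array.

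Other genes of the pathway were read from a list of 59, of which 51 were measured. Against RAS-ON 20 were higher, 10 were lower and 21 did not pass, beside 48.8% of all genes that passed. Of 13 further phospholipases and acyl-recycling enzymes 7 rose and 2 fell. Mgll, the monoacylglycerol lipase that releases arachidonic acid from 2-arachidonoylglycerol, rose by 1.20 ± 0.06 (SE; adjusted p = 3.99e-10 in limma). Pla2g12a, a secreted phospholipase, rose by 0.77 ± 0.10, and Lpcat2, which makes platelet-activating factor, by 0.76 ± 0.06, or by 0.39 in the mean of its 2 probe sets. In each of these 3 genes, named for the largest changes of their list, all 10 RAS-OFF arrays lay above the RAS-ON arrays. Of all genes, not picked by change, 9.36% did so.

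Of 5 other lipoxygenase genes 1 rose, 1 fell and 3 did not pass, beside 48.8% of all genes that passed. Alox12, the platelet 12-lipoxygenase, rose by 0.29 ± 0.09 (SE; adjusted p = 0.0136 in limma), a pass that was lost when both probe sets were averaged (0.09, adjusted p = 0.369), against RAS-ON replicates 1 to 3 alone (0.0692) and without the 3 set-aside arrays (0.0514), within a range of 0.00162 to 0.478. Alox8 was dim, with a RAS-ON mean of 5.17 ± 0.12 (SD, n = 5) against 5.00 ± 0.15 (SD, n = 10) later, and fell by 0.18 ± 0.06 (SE; adjusted p = 0.0196 in limma). That pass was lost without RAS-ON replicate 3 (adjusted p = 0.0561), against RAS-ON replicates 4 and 5 alone (0.341), with 2 groups only (0.064) and without the 72 h arrays (0.0951), within a range of 0.00258 to 0.341.

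Of 6 prostaglandin and thromboxane synthases 2 rose and 4 did not pass, beside 48.8% of all genes that passed. Cbr1, a carbonyl reductase that can turn prostaglandin E2 into F2-alpha, rose by 1.03 ± 0.06 (SE; adjusted p = 2.79e-09 in limma). Its groups did not overlap, beside 21.3% of all genes, but it was named for the largest change of its list. Tbxas1, thromboxane synthase, rose by 0.20 ± 0.06 (adjusted p = 0.0108). That pass was lost against RAS-ON replicates 4 and 5 alone, at 0.06 (adjusted p = 0.528, in a range of 0.000517 to 0.528 over the alternatives).

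All 5 measured relatives of leukotriene C4 synthase and leukotriene processing genes passed, 3 upward and 2 downward, beside 48.8% of all genes. Mgst3, a microsomal glutathione transferase, rose by 1.50 ± 0.06 (SE; adjusted p = 9.78e-11 in limma), from 11.58 ± 0.13 (SD, n = 5) to 13.08 ± 0.19 (SD, n = 10). Mgst1 rose by 0.92 ± 0.09 (SE), or by 0.55 in the mean of its 2 probe sets. Mgst2, which can also make leukotriene C4, fell by 0.69 ± 0.12 (SE; adjusted p = 0.000297). Cotl1, singled out after its values were seen because its protein binds 5-lipoxygenase, fell by 0.60 ± 0.07 (SE), with 9 of 10 arrays after doxycycline under the lowest RAS-ON value and a slope of -0.21 ± 0.03 per 12 h (adjusted p = 0.000562).

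Of 8 genes of inactivation and transport 3 rose, 3 fell and 2 did not pass, beside 48.8% of all genes that passed. Ptgr1, which oxidises leukotriene B4 and reduces prostaglandins, fell by 1.17 ± 0.08 (SE; adjusted p = 9.42e-09 in limma). Abcc1, an exporter of leukotriene C4, fell by 0.81 ± 0.06 and Abcc4, an exporter of prostaglandins, by 0.60 ± 0.06. For each of the 3, named for the largest changes of their list, every RAS-OFF array lay below the RAS-ON arrays. Of all genes, not picked by change, 12% did so.

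Receptor genes that passed went both ways. Of 9 prostanoid receptor genes 2 rose, 1 fell and 6 did not pass, beside 20.1% of all genes that rose and 28.7% that fell. Ptger3, the EP3 receptor of prostaglandin E2, rose by 1.33 ± 0.12 (SE; adjusted p = 3.66e-07 in limma), or by 0.64 in the mean of its 2 probe sets. Ptger4, the EP4 receptor, rose by 0.56 ± 0.08, or by 0.37 against RAS-ON replicates 4 and 5 alone, and Ptgir, the prostacyclin receptor, fell by 0.55 ± 0.09. Of 5 leukotriene and lipoxin receptor genes 2 rose, 1 fell and 2 did not pass, beside the same shares of all genes.

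Cysltr1, a receptor of cysteinyl leukotrienes, averaged 10.07 ± 0.41 (SD, n = 5) with NRAS on and 8.97 ± 0.60 (SD, n = 10) with NRAS off, as log2 intensity. It fell by 1.10 ± 0.14 (SE; adjusted p = 1.74e-05 in limma), with 9 of 10 RAS-OFF arrays below every RAS-ON array, and by 0.36 ± 0.06 per 12 h between 48 and 96 h (adjusted p = 0.00114). Fpr2, a formyl peptide and lipoxin receptor of neutrophils, rose by 0.96 ± 0.10 (SE) against RAS-ON and had a slope of -0.23 ± 0.04 per 12 h (adjusted p = 0.00188). Without the 3 set-aside arrays that slope did not pass (adjusted p = 0.123, in a range of 7.34e-05 to 0.123 over the alternatives). Ltb4r1, the high-affinity leukotriene B4 receptor, was singled out after its values were seen and had a slope of -0.26 ± 0.06 per 12 h (adjusted p = 0.00706). That pass was lost without 48 h replicate 1 (adjusted p = 0.0683), the 48 h arrays (0.0533), the 96 h arrays (0.0513) or the 3 set-aside arrays (0.275), within a range of 7e-05 to 0.275. Oxgr1, reported as a leukotriene E4 receptor, stood at 5.05 ± 0.11 (SD, n = 5) and 5.21 ± 0.13 (SD, n = 10) and rose by 0.17 ± 0.06 (SE; adjusted p = 0.0346 in limma). It no longer passed when 1 array was left out, being RAS-ON replicate 1, 2 or 5, replicate 1 of 48 or 84 h, or replicate 2 of 60, 72 or 96 h (adjusted p = 0.0698, 0.109, 0.0695, 0.0542, 0.0619, 0.0635, 0.0598 and 0.0608 in that order), within a range of 0.0128 to 0.179.

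**Figure D4:**
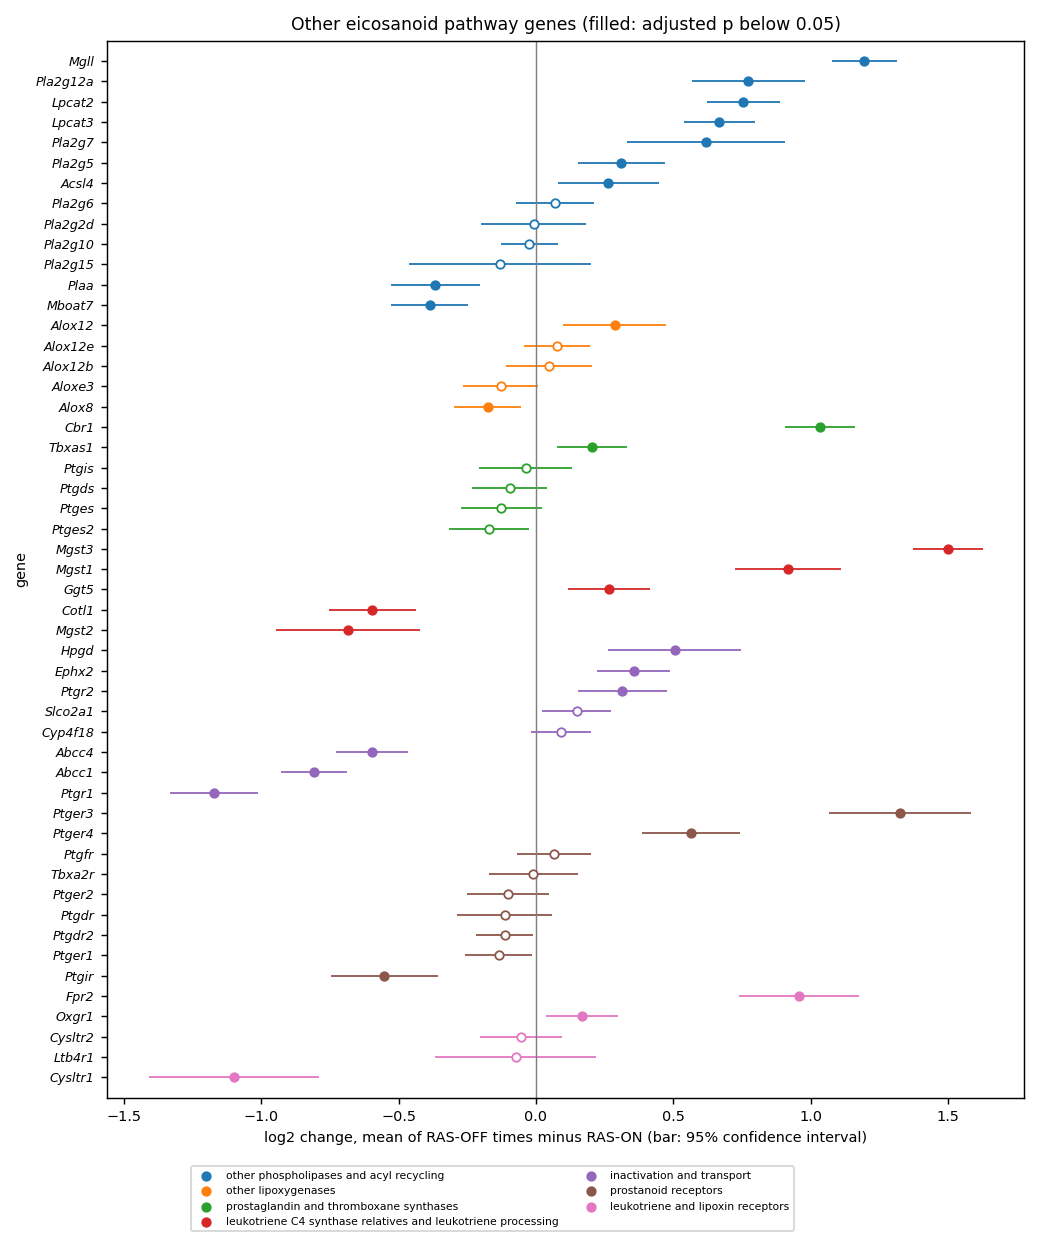
Log2 change of the mean of the RAS-OFF times against RAS-ON (x axis) with its 95% confidence interval for 51 other genes of the pathway (y axis), coloured by list, filled where the adjusted p is below 0.05. Mgst3 and Ptger3 lie highest at 1.50 and 1.33, Ptgr1 and Cysltr1 lowest at -1.17 and -1.10.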

How the data were processed

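Biotin-labelled copies of total RNA from spleen leukemia cells were read on 15 one-colour arrays, per the labels' protocols. The deposited values are intensities, 1 for each probe set on each array. The submitters' processing notes name RMA, without a version or parameters. RMA usually forces similar distributions on all arrays, so a shift of most genes would not show. The intensities are linear and above 0, and log2 was taken. All value columns were used, with 0 others in the table.

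Of 45101 probe sets, 34945 had 1 gene symbol in the platform annotation, 932 several, 9160 none and 64 were controls. Those with several or no symbol were left out. Each of 18193 genes was its brightest probe set over all arrays, with no filter on dim genes. Groups came from sample titles. limma 3.58.1 (R 4.3.3) fitted 1 mean per group with default eBayes and two-sided tests, adjusted by Benjamini-Hochberg over all genes. RAS-ON was subtracted from each RAS-OFF time and from the average of all 5. A linear trend through the group means from 48 to 96 h, by least squares, gave the slope per 12 h. The code was tested on simulated data. Promoter sequences are RefSeq's (GRCm38.p6).

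The members, lists and alternatives were chosen with earlier results of these data known. The 34 alternatives changed the probe set rule, scaling, dim filter, variance model, arrays and times. Named genes were all members, up to 3 passing genes of each pathway list with the largest change, and the 3 genes most like each of the 3 brightest members. Leaving out 1 array of a pair takes the remaining one to vary like the other groups.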

Additional observations from a re-analysis of the deposited data

Results flagged for a closer look

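Pla2g4c in the 5 RAS-ON arrays was picked out because 1 array lay far from the rest: replicate 5 stood at 8.04 and the others at 7.60 to 7.72, and this gap was 0.741 of the whole range. Chance gives such a gap in about 1 of 20 groups, and 9 genes were looked at.

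In 5 members the effect differed between RAS-OFF times, by limma's test of the slope per 12 h. Of all genes 13.7% passed that test, 5% upward and 8.75% downward. The slope was 0.105 for Pla2g4c (adjusted p = 0.0403), -0.17 for Alox5 (0.00113), -0.188 for Alox5ap (0.000226), 0.136 for Alox15 (0.0344) and -0.208 for Lta4h (0.00129). The Pla2g4c slope did not pass without RAS-ON replicate 1 or any 1 of the arrays of 48, 60, 84 and 96 h, at adjusted p values of 0.0524 to 0.139, and was 0.06 in the mean of its probe sets (0.072), within a range of 0.0108 to 0.402 over all alternatives. The Alox15 slope did not pass without 48 h replicate 1 or 2, 60 h replicate 1, 84 h replicate 1 or 96 h replicate 2 (adjusted p = 0.108, 0.112, 0.0799, 0.0762 and 0.172), within a range of 0.0173 to 0.172. Without replicate 1 of 48, 84 and 96 h together, the slopes of Pla2g4c, Alox15, Alox5 and Lta4h did not pass (adjusted p = 0.273, 0.17, 0.0686 and 0.122).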

How the results depend on the processing

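For 57 named changes and slopes, 1845 comparisons with an alternative were made: 1697 kept direction and side of the threshold, 112 lost the pass, 13 gained one and 23 changed sign. Members that passed against RAS-ON numbered 4 to 7 in place of 5, except that a minimum log2 change of 1 left 1. That minimum also left 5 in place of 15 passes over the 5 times, 0 in place of 5 slopes, and 6 in place of 30 pathway genes, by its construction. Slopes passed for 1 member without replicate 1 of 48, 84 and 96 h together, for 3 without the 48 h arrays, 3 without the 60 h arrays and 3 without the 84 h arrays, and for 3 to 5 without 1 array.

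Sign changes occurred in Pla2g4a, Ltc4s, Ptgs2 and Hpgds, in values that passed neither as reported nor under the alternative that turned them. Against RAS-ON replicates 4 and 5 only, Pla2g4a was 0.0299 and Ltc4s -0.0760. Ptgs2 was 0.0517 with probe sets averaged, 0.00521 after quantile normalization, 0.0218 with array weights, 0.00919 without replicate 1 of 48, 84 and 96 h, 0.0352 against RAS-ON replicates 1 to 3, 0.0237, 0.00404 and 0.0157 without the 48, 72 and 84 h arrays, and -0.0362 to 0.0274 without 1 array. The slope of Pla2g4a was -0.0630 to 0.0128 without 1 array and 0.0303 without the 48 h arrays. That of Ltc4s was -0.00499 without 48 h and -0.00135 without 84 h, and that of Hpgds 0.00333 without replicate 1 of 48, 84 and 96 h. The cause was not tested.

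Same-numbered arrays of 2 groups correlated at -0.237 to 0.217 in their deviations from the group means over 15 pairs of groups. In a group of 2 arrays the deviations mirror each other, so these values cannot decide whether the numbers pair the samples. With the replicate number as a block, 6 members, 17 passes over times, 5 slopes and 34 pathway genes passed, and Ptgs2 was 0.0850. Replicate numbers 3, 4 and 5 occur only in RAS-ON, so this block in effect compares RAS-OFF with RAS-ON replicates 1 and 2 alone. Its gains and losses therefore cannot be read as an effect of pairing. Under that block Pla2g4a (-0.41, adjusted p = 0.0183) and Ltc4s (0.27, 0.0135) gained a pass. The mean change of Alox5 (0.13, 0.201) and of Alox12 (0.10, 0.478) lost theirs, as did Alox5 (0.23, 0.104) and Alox5ap (-0.22, 0.0804) at 72 h. Dim genes limit what can be read: both Ptgs2 probe sets lay below the array median throughout. Of the 15 arrays, Hpgds lay below the median on 10 and Alox15 on 5.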
